A study of Mus musculus with 12 samples.

Results

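*Pigr*, *Hp*, *Fgb*, *Lcn2*, *C3* and *Cp* are 6 genes of mucosal defence and of the acute-phase response, followed here across 12 RNA-sequencing libraries of S1 tumorspheres. They were found by gene symbol among the 18926 genes of the deposited tables, and all 6 were among the 18053 genes that passed the filter on low counts. *Pigr*, *Hp* and *Fgb* were selected on their large fall from the libraries with the double-KO label to those with the *Rasa1*-KO label, so their values in any comparison with either of these groups are a description without a test. *Lcn2*, *C3* and *Cp* were added as related epithelial genes.

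S1 is a mouse gastric cancer line from a tumor of a ChetPS mouse, whose floxed alleles are *Smad4* and *Trp53* on both chromosomes and *Cdh1* on 1, and all groups share this background. Cas9 was carried by a PiggyBac transposon and the guide RNA by a lentivirus. The 4 groups of 3 libraries each were control cells, which per the study's methods received a non-targeting guide or an empty guide backbone, *Nf2*-KO cells, cells labelled *Rasa1*-KO and cells labelled *Rasa1*/*Nf2* double-KO. They were grown without attachment as spheres in medium with epidermal growth factor, although the sample labels call them monolayer cells. Per the study's methods, the cells that survived antibiotic selection were used as a pool and not as single clones. A figure legend of the study calls the points of these RNA profiles technical replications, and no source used here describes separate cultures. Every SD, standard error and p-value therefore measures the spread between libraries that may be technical replicates of 1 culture.

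Total counts were between 43818139 and 96674463 per library. The check of the targeted genes went against 2 of the labels. *Nf2* was at 58.2 ± 2.82 CPM (SD, n = 3; counts scaled to a common library size of 1e6) in control and 13.6 ± 0.631 in *Nf2*-KO. It was at 11.9 ± 0.253 with the *Rasa1*-KO label and at 58.9 ± 3.30 with the double-KO label. *Rasa1* was at 71.3 ± 9.54, 98.5 ± 2.21, 31.9 ± 2.27 and 20.5 ± 2.80 CPM in the same order. The names of the deposited tables exchange the labelled *Rasa1*-KO and labelled double-KO groups, and both are called by their sample labels throughout. In addition, 1 control library and 1 library labelled double-KO, whose tables carry no number in their names, stood apart from their sister libraries. Values are therefore also given without both.

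The acute-phase response is a change in the secreted proteins of the liver and of epithelia during infection and injury, driven by cytokines such as interleukin-6 and interleukin-1 through STAT3, C/EBP and NF-κB factors. At mucosal surfaces the same signals act on the epithelium itself, which carries secretory antibodies into the lumen and releases antimicrobial and complement proteins. Merlin, the product of *Nf2*, acts upstream of the Hippo kinases that restrain the transcriptional coactivator YAP, which binds DNA with TEAD factors.

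By role, *Pigr* encodes the polymeric immunoglobulin receptor, which transports IgA across the epithelium. *Lcn2* encodes lipocalin-2, which withholds iron from bacteria by binding their siderophores, and *C3* the central complement component. *Hp* encodes haptoglobin, which binds free hemoglobin, *Cp* the copper-carrying ferroxidase ceruloplasmin, and *Fgb* the beta chain of fibrinogen. On GRCm38.p6, the RefSeq assembly of the mm10 build to which the authors aligned, the genes lie at chr1:130826684-130852249 (*Pigr*), chr2:32384637-32387739 (*Lcn2*), chr17:57203967-57228136 (*C3*), chr8:109575128-109579172 (*Hp*), chr3:19956933-20009750 (*Cp*) and chr3:83042246-83049863 (*Fgb*). The values are gene-level counts over the annotated exons. *Cp* overlaps *Hps3* in this annotation, and whether the counting used strand is not given in the sources used here, so reads of the shared stretch are uncertain. *Hps3* was at 10.8 to 21.2 CPM over all 12 libraries, against at least 649 for *Cp*.

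The bases before the transcription start are shown for 4 members because the members moved together and the factors named above bind short motifs there. RefSeq promoters were found for 5 of the 6 genes, *Hp* excepted. Capitals mark, on either strand, the letters TTGCNNAA (C/EBP), then TTCNNNGAA (STAT), then GGAATG (TEAD), then TGANTCA (AP-1), then GTTAAT (a half-site of HNF1) and the decamer of NF-κB. The windows hold the 250 bases before the start, 5′ to 3′ along the gene, at chr3:83049864-83050113 (*Fgb*, minus strand), chr17:57228137-57228386 (*C3*, minus), chr2:32387740-32387989 (*Lcn2*, minus) and chr1:130826434-130826683 (*Pigr*, plus).
Fgb: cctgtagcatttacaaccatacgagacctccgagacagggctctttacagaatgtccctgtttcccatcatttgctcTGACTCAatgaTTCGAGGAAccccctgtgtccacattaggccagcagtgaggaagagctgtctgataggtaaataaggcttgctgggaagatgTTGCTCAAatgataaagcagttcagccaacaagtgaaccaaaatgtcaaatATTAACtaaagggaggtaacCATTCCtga
C3: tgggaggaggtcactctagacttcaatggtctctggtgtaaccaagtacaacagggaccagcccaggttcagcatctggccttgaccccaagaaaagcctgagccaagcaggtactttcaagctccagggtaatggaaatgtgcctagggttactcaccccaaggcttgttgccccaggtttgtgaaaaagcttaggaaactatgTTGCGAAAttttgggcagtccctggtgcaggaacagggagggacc
Lcn2: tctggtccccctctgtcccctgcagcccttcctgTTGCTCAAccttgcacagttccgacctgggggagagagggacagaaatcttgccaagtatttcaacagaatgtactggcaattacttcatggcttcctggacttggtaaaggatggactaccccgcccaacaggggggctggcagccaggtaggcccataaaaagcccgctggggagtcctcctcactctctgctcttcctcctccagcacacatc
Pigr: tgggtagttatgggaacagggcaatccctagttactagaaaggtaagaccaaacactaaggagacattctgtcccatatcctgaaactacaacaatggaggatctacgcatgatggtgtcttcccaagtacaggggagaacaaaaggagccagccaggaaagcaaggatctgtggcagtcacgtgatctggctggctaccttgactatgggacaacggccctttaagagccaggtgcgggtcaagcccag

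*Fgb* held letters of 5 of the 6 motifs. Its C/EBP match began 80 bases before the start, its STAT match 162 and its AP-1 match 173, with the TEAD and HNF1 letters at 9 and 29. *C3* and *Lcn2* each held a C/EBP match and no other, 45 and 216 bases before the start. The second of the starts listed for *Cp* had a C/EBP match at 70 bases and TEAD letters at 196, and the first had AP-1 and HNF1 letters. The window of the second start, chr3:19956999-19957248, lies inside the *Cp* interval given above. That of the first, chr3:19956804-19957053, lies partly inside it. *Pigr* had none of the 6 motifs in this window. Among 32851 promoter windows of the same length, 9.56% held the C/EBP letters, 7.02% the STAT letters, 3.90% the NF-κB motif, 12.6% the TEAD letters, 6.75% the AP-1 letters and 6.43% the HNF1 letters. A match is a description of letters and not of binding.

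**Figure D1:**
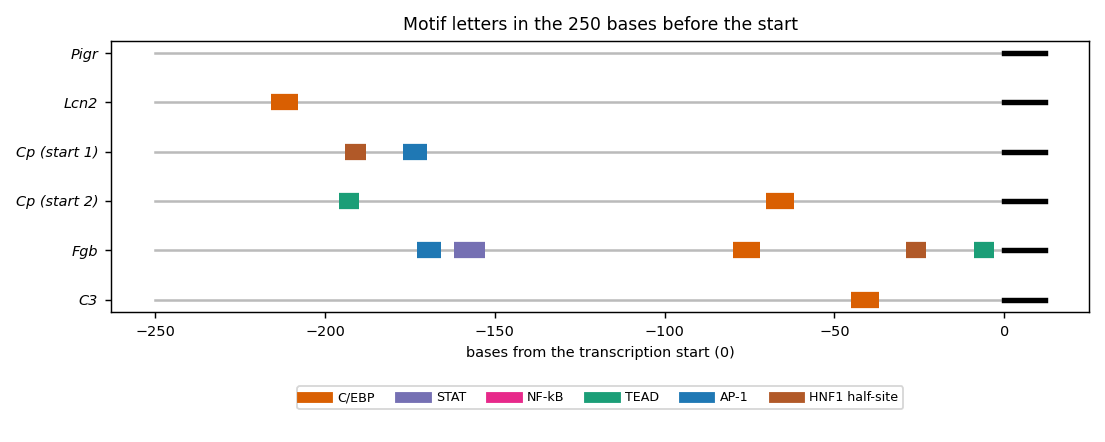
Motif letters in the 250 bases before the transcription start of the 5 members with a RefSeq promoter, 2 starts for *Cp*. The horizontal axis is the distance in bases from the start at 0, the black bar is the first stretch of the gene, and colored blocks are matches on either strand. The C/EBP letters (orange) are in 4 of the 6 windows and no block is drawn for *Pigr*.

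In control tumorspheres, *Lcn2* was the 14th of the 18053 genes by level per length. Levels between genes are compared in FPKM, which divide counts by transcript length. *Lcn2* was at 1360 ± 178 FPKM (SD, n = 3), *C3* at 712 ± 83.0, *Cp* at 430 ± 57.4, *Hp* at 408 ± 103, *Fgb* at 31.0 ± 4.16 and *Pigr* at 13.7 ± 10.1. Each neighbor in this order was separated in all libraries except *Cp* and *Hp*, whose libraries overlapped. In *Nf2*-KO the order was *Cp* at 137 ± 6.31 FPKM, *C3* at 33.6 ± 4.43, *Lcn2* at 22.6 ± 0.920, *Hp* at 7.10 ± 0.612, *Fgb* at 0.456 ± 0.130 and *Pigr* at 0.0156 ± 0.00878. Here no neighbors overlapped, and *Lcn2* had moved from the first place to the third. In the libraries labelled *Rasa1*-KO the levels were 139 ± 0.911 for *Cp*, 39.7 ± 1.50 for *Lcn2*, 29.4 ± 2.93 for *C3*, 8.21 ± 0.899 for *Hp*, 0.414 ± 0.0940 for *Fgb* and 0.0458 ± 0.0185 for *Pigr*. In those labelled double-KO they were 492 ± 58.1 for *Lcn2*, 448 ± 90.0 for *Hp*, 356 ± 127 for *C3*, 342 ± 29.6 for *Cp*, 22.7 ± 1.31 for *Fgb* and 2.65 ± 1.94 for *Pigr*, and the first 3 of these each overlapped with the next.

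Loss of *Nf2* was compared with control first, since the selection of the members did not use these libraries. All 6 genes fell, against 22.2% of the genes tested that were called lower at an adjusted p under 0.05, and no *Nf2*-KO library reached a control library for any of the 6. For *Pigr*, *Hp* and *Fgb* the 22.2% is not a matched share. They were selected between 2 labelled groups, of which the one with low levels also had low *Nf2* mRNA. Of the 2936 genes called lower in that comparison, 2219 were also called lower in *Nf2*-KO. The median log2 fold change over all genes tested was -0.07. By the size of the fall among the 18053 genes, *Pigr* was 1st, *Fgb* 13th, *Lcn2* 17th, *Hp* 18th, *C3* 65th and *Cp* 1463rd. Genes with a count of 0 in any library had been removed by the authors and have no rank. In bulk RNA, fewer cells that express a gene and less RNA per cell cannot be told apart.

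*Pigr* was at 8.85, 75.4 and 76.9 CPM in the control libraries and at 0.0941, 0.0912 and 0.0232 in *Nf2*-KO. The *Nf2*-KO values rest on 8, 8 and 2 reads, the last with an exact Poisson interval of 0.242 to 7.23 reads. On the log2 scale the difference was -9.56 ± 1.21 (standard error, as after ± for all fold changes; edgeR adjusted p = 7.34e-05). Pooled over the libraries, 18 reads stood against 10246 in control, a fold of 676 after scaling (95% interval 427.5 to 1141, counting error only). The control library of the unnumbered table was 8.60-fold below the mean of its 2 sisters, and without both libraries of unnumbered tables the log2 fold change was -10.06 ± 0.22. The receptor was thus near the limit of detection in *Nf2*-KO at this depth. On the log2(FPKM + 1) scale, which compresses low levels, the difference was -3.42.

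*Lcn2* was at 1466, 1087 and 1096 CPM in control and at 22.0, 20.3 and 20.6 in *Nf2*-KO. Its libraries were close to each other in both groups, and the log2 fold change was -5.86 ± 0.16 (edgeR adjusted p = 1.82e-09). *C3* was at 4503, 3622 and 3185 CPM in control and at 211, 182 and 164 in *Nf2*-KO. The complement component fell by 4.34 ± 0.26 on the log2 scale (edgeR adjusted p = 2.87e-07).

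*Hp* was at 745, 583 and 399.6 CPM in control and at 10.5, 9.20 and 11.4 in *Nf2*-KO, and *Fgb* at 52.7, 63.5 and 49.2 against 0.588, 1.03 and 0.940. Both plasma protein genes fell by a similar factor, with log2 fold changes of -5.80 ± 0.27 for *Hp* (edgeR adjusted p = 3.85e-08) and -6.01 ± 0.23 for *Fgb* (edgeR adjusted p = 1.38e-08). *Cp* was at 2544, 1859 and 1728 CPM in control and at 663, 719.97 and 649 in *Nf2*-KO. It had the smallest fall of the 6, of 1.59 ± 0.15 on the log2 scale (edgeR adjusted p = 8.34e-06), and stayed well above the detection limit. Without both libraries of unnumbered tables the log2 fold changes of *Lcn2*, *C3*, *Hp*, *Fgb* and *Cp* were -5.70, -4.19, -5.56, -6.04 and -1.40, and all remained called.

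**Figure D2:**
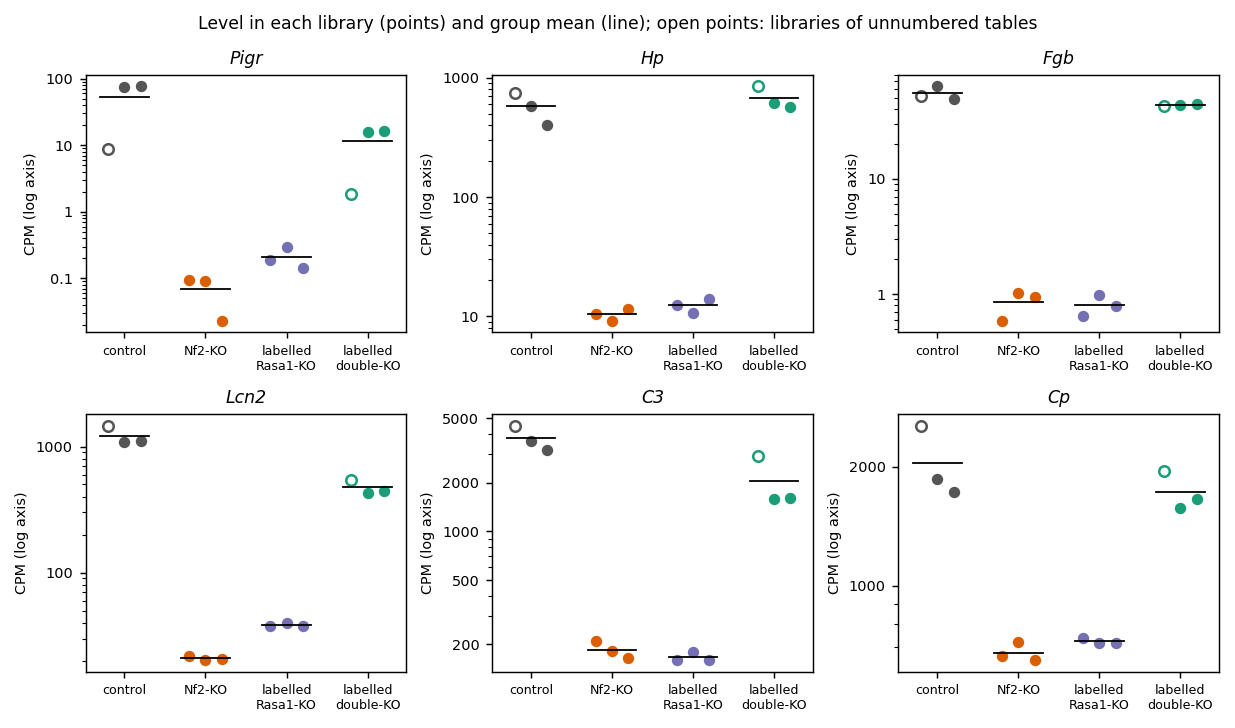
CPM of each member in each of the 12 libraries, on log axes that differ between panels and do not start at 0. Points are libraries, lines are group means, and open points are the 2 libraries of unnumbered tables. For all 6 genes the 3 *Nf2*-KO libraries and the 3 labelled *Rasa1*-KO lie below every library of control and labelled double-KO, and *Pigr* is low in both open points.

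The libraries labelled *Rasa1*-KO had low levels as well. *Pigr* was at 0.188, 0.292 and 0.141 CPM, from 15, 24 and 11 reads, *Hp* at 12.5, 10.7 and 14.1 and *Fgb* at 0.640, 0.986 and 0.796. *Lcn2* was at 37.9, 39.6 and 38.0 CPM, *C3* at 161, 179.99 and 160.3 and *Cp* at 737, 716 and 717. All 3 libraries were below all control libraries for each member, where 22.2% of genes were called lower against control. For the members that can be tested, the log2 fold changes against control were -4.98 ± 0.16 for *Lcn2* (edgeR adjusted p = 1.16e-08), -4.50 ± 0.26 for *C3* (3.94e-07) and -1.50 ± 0.15 for *Cp* (1.96e-05). For the selected members they were -8.00 (*Pigr*), -5.54 (*Hp*) and -6.09 (*Fgb*), given as a description.

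Set against *Nf2*-KO, *Lcn2* was the 1 member called of the 3 tested, where 1.92% of all genes were called higher and 1.74% lower. It was higher with the *Rasa1*-KO label by 0.88 ± 0.13 on the log2 scale (edgeR adjusted p = 0.00523), with no overlap between the libraries. *C3* differed by -0.15 ± 0.23 (edgeR adjusted p = 0.851) and *Cp* by 0.09 ± 0.15 (edgeR adjusted p = 0.859). *Hp* and *Fgb* overlapped between these groups, and the *Pigr* libraries were higher in the labelled *Rasa1*-KO group, at the few reads given above. The 2 comparisons with control share the control libraries, so the likeness of their fold changes is no separate evidence.

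In the libraries labelled double-KO, in which *Nf2* mRNA was at the control level, the members were near control or moderately lower. *Hp* was at 849, 619 and 568 CPM, and its range overlapped with control, and *Fgb* was at 42.7, 43.4 and 44.7, just below the lowest control library. *Pigr* was at 1.84, 15.9 and 16.4 CPM, and its range overlapped with control. Between libraries with the same number in the table name, *Hp* was 1.14-, 1.06- and 1.42-fold higher than control and *Pigr* lower in all 3. The descriptive log2 fold changes against control were 0.24 for *Hp*, -0.34 for *Fgb* and -2.24 for *Pigr*.

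*Lcn2* fell in these libraries, to 544, 432 and 445 CPM, by 1.36 ± 0.14 on the log2 scale (edgeR adjusted p = 2.83e-04), where 2.46% of genes were called lower. *C3*, at 2919, 1583 and 1616 CPM, was lower by 0.89 ± 0.23 (edgeR adjusted p = 0.0402), and *Cp*, at 1954, 1576 and 1655, did not pass the test, with a log2 fold change of -0.24 ± 0.15 (edgeR adjusted p = 0.385). The call of *C3* was lost when any of 9 of the 12 libraries was left out, with adjusted p up to 0.193, while without both libraries of unnumbered tables it was held at -1.09 (*C3*, adjusted p = 5.83e-05). The call of *Lcn2* was lost when only these 2 groups were fitted (adjusted p = 0.0613). With the table number as a block over all 12 libraries, the log2 fold change of *C3* was -0.93 ± 0.13 (edgeR adjusted p = 0.00182). That of *Lcn2* was -1.35 ± 0.08 (4.09e-05) and that of *Cp* -0.23 ± 0.10 (0.146), and 1051 of the 18053 genes were called lower in place of 444. Whether these numbers pair the libraries is not settled.

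The libraries of unnumbered tables bear most on *Pigr*. The unnumbered library was 8.60-fold below its sisters in control and 8.81-fold below them among those labelled double-KO. For the other members the ratio of the unnumbered library to the mean of its sisters was between 0.936 and 1.83, and *Fgb* differed least. Set side by side by the number in the table name, control exceeded labelled double-KO for *Pigr* by 4.82-, 4.73- and 4.68-fold while the level itself differed as above. *Dmbt1*, a mucosal scavenger receptor, was also low in both, at 826 CPM against 3998 and 3454 in control and at 841 against 2349 and 2325 among those labelled double-KO.

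**Figure D3:**
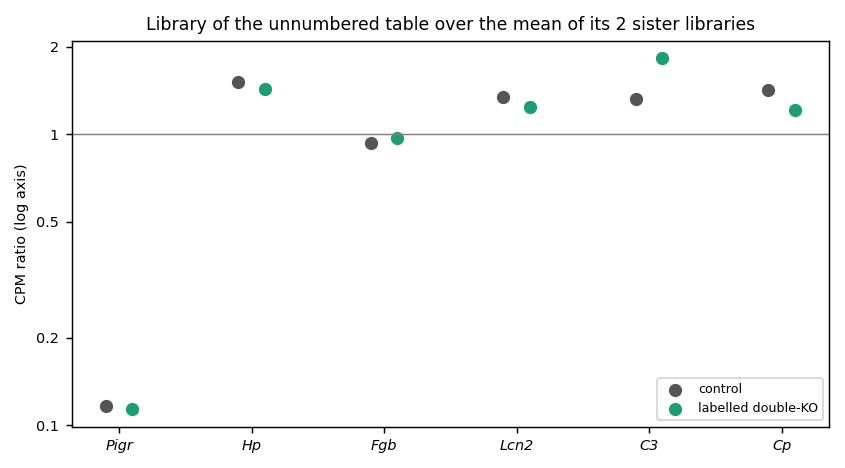
Ratio of the CPM of the library of the unnumbered table to the mean CPM of its 2 sister libraries, for each member in control (gray) and labelled double-KO (green), on a log axis. The line marks equal levels. *Pigr* lies near 0.11 to 0.12 in both groups, and the other members lie between 0.936 and 1.83.

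The *Rasa1*-KO label against the double-KO label gave a comparison that shares no library with *Nf2*-KO against control. *Pigr*, *Hp* and *Fgb* were chosen by this contrast, and their log2 fold changes of -5.76, -5.77 and -5.75 are a description. *Lcn2* fell by 3.62 ± 0.15 (edgeR adjusted p = 4.77e-08), *C3* by 3.61 ± 0.25 (edgeR adjusted p = 2.78e-06) and *Cp* by 1.26 ± 0.15 (edgeR adjusted p = 1.24e-04), where 16.3% of genes were called lower. No library overlapped for any of the 6. Without both libraries of unnumbered tables the log2 fold changes of the tested members were -3.51, -3.26 and -1.16, all called. If the labels are exchanged, the same values are a fall in double-KO against *Rasa1*-KO. In both comparisons the group with low *Nf2* mRNA was the group with low levels of the members.

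**Figure D4:**
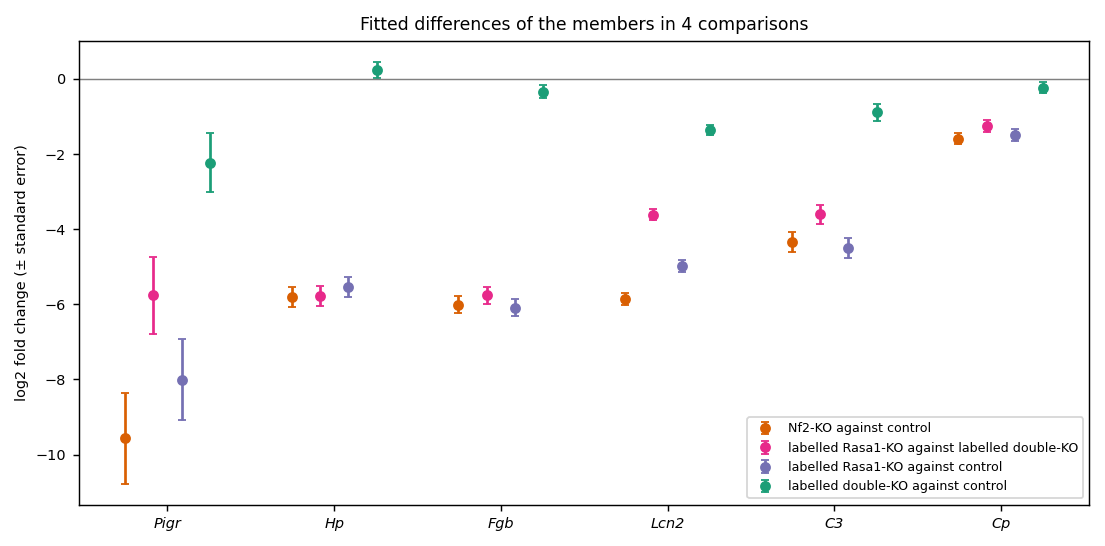
Fitted log2 fold change of each member in 4 comparisons, with standard errors from the fit over all 12 libraries, 3 in each group. Values of *Pigr*, *Hp* and *Fgb* in the comparisons with labelled *Rasa1*-KO or labelled double-KO are descriptive. The 3 comparisons in which the first group has low *Nf2* mRNA lie below -1 for all members, and labelled double-KO against control lies between -2.24 and 0.24.

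Across all 12 libraries the members' log2 CPM had Pearson's r between 0.881 (*Pigr* with *Cp*) and 0.990 (*Hp* with *Fgb*). The libraries fall into a low and a high set, and the r values mainly describe this split. Of 17224 genes with more than 3 reads in every library, *Serpina7*, *Slc15a2*, *Synm*, *Ces2g* and *Npr1* were the most like the mean of the members, with r of 0.998, 0.997, 0.997, 0.996 and 0.996. *Serpina7*, which encodes thyroxine-binding globulin, another plasma carrier, was at 29.9 CPM in control, 1.04 in *Nf2*-KO, 1.24 with the *Rasa1*-KO label and 18.1 with the double-KO label. *Gc*, the vitamin D-binding protein of plasma, was the most like both *Hp* (r = 0.997) and *Fgb* (r = 0.996), at 425, 6.76, 7.94 and 356 CPM in the same order. The next for *Fgb* was *Hpx* (hemopexin, r = 0.995) and for *Hp* *Atp9a* (r = 0.996). The most like *Cp* were *Itih2* (r = 0.997) and *St6gal1* (r = 0.995), those most like *Lcn2* were *Tmc5* (r = 0.997) and *Lyn* (r = 0.996), and those most like *C3* were *Npr1* (r = 0.996) and *Zmynd15* (r = 0.995). *Pigr* was most like *Firre* (r = 0.994) and *Tmprss6* (r = 0.990), and *Firre* too was lower in both libraries of unnumbered tables, at 67.7 CPM against 102 and 104 in control.

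Other acute-phase genes fell with the members. Of 18 acute-phase reactants tested in *Nf2*-KO against control, 12 were lower and 2 were higher, where 22.2% and 20.6% of all genes were called in these directions, and their median log2 fold change was -2.29 against -0.07 over all genes. *Fga*, the alpha chain of fibrinogen and a genomic neighbor of *Fgb*, was at 10.4, 10.9 and 8.65 CPM in control and at 0.0706, 0.274 and 0.116 in *Nf2*-KO. Its log2 fold change of -6.00 ± 0.37 (edgeR adjusted p = 3.55e-07) was close to that of *Fgb*. *Saa3*, a serum amyloid A, fell by 5.16 (adjusted p = 7.45e-09), *Hpx* fell by 5.30 (2.42e-08) and the iron carrier *Trf* fell by 2.84 (2.79e-08). The metallothioneins *Mt1* and *Mt2*, which bind zinc and copper, rose instead, by 1.56 and 1.50 (adjusted p = 3.30e-04 and 8.18e-05). In labelled double-KO against control *Mt1*, *Mt2* and *Trf* were higher, by 1.11, 0.78 and 0.93 (adjusted p = 0.0179, 0.0312 and 0.00101). The list was not divided by the direction in which a gene changes during an acute-phase response. Of the 12 lower genes, 11 were also lower with the *Rasa1*-KO label against the double-KO label, as were 2219 of all 4011 genes lower in *Nf2*-KO (55.3%). In that comparison the list had a median of -1.39 against 0.00 over all genes, and 1 of its genes was higher, where 14.0% of all genes were.

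Of 16 complement genes, 9 were lower in *Nf2*-KO, where 22.2% of all genes were, with a median of -0.90. *Clu*, which encodes the complement-restraining clusterin, was at 5222, 5638 and 4424 CPM in control and at 432, 401 and 429 in *Nf2*-KO, a difference of -3.60 on the log2 scale (edgeR adjusted p = 1.29e-08). *C4b*, of the classical pathway, fell by 4.50 (1.86e-08), *Cd55*, which shields host cells from the C3 convertase, by 5.61 (1.37e-06) and *Cfb*, factor B of the alternative pathway, by 2.65 (5.69e-06). Both activators and regulators of C3 were thus among the lower genes. *Masp1* and *C1ra*, with log2 fold changes of 0.34 and -0.07, did not pass the test. Of the 9, 8 were also lower with the *Rasa1*-KO label against the double-KO label, beside the 55.3% over all genes.

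Of 12 mucosal defence genes, 8 were lower in *Nf2*-KO and 2 were higher, where 22.2% and 20.6% of all genes were, with a median of -1.82. *Dmbt1* was at 826, 3998 and 3454 CPM in control and at 15.7, 13.4 and 13.4 in *Nf2*-KO, a difference of -7.61 ± 0.64 on the log2 scale (edgeR adjusted p = 3.28e-06). *Noxo1*, a subunit of the epithelial NADPH oxidase, fell by 2.45 (6.97e-07), the bacterial sensor *Nod2* by 1.94 (1.78e-06) and *Nos2*, the inducible nitric oxide synthase, by 1.83 (1.42e-05). The higher genes were *Slpi*, a secreted protease inhibitor, by 0.99 (0.00135) and *Fcgrt*, the IgG transporter, by 0.74 (0.0330). Of the 8 lower genes, 7 were also lower with the *Rasa1*-KO label against the double-KO label, beside the 55.3% over all genes.

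The signals and transcription factors upstream had a median nearer to 0 than the acute-phase reactants. Of 40 tested in *Nf2*-KO, 25 were lower and 5 higher, where 22.2% and 20.6% of all genes were, with a median of -0.57. Of those with the smallest adjusted p, the interleukin-1 receptor antagonist *Il1rn* fell by 2.19 (1.72e-07), *Tnf* fell by 3.76 (3.36e-07), the interleukin-22 receptor *Il22ra1* by 1.56 (2.39e-06) and *Tlr4* by 1.03 (1.22e-05). *Stat3* was at 233 CPM in control and 204 in *Nf2*-KO and did not pass the test, with a log2 fold change of -0.19 ± 0.09 (edgeR adjusted p = 0.101), while it was lower by 0.71 with the *Rasa1*-KO label against the double-KO label (edgeR adjusted p = 1.68e-04). *Socs3*, a feedback inhibitor and target of STAT3, rose by 0.96 (0.00455) in *Nf2*-KO and by 0.99 (0.0213) in labelled double-KO against control, with a log2 fold change of -0.07 (0.843) between the 2 labelled groups. Of the C/EBP factors in *Nf2*-KO, *Cebpb* rose by 0.66 (0.0114), *Cebpa* fell by 0.92 (2.06e-04) and *Cebpd* had a log2 fold change of -0.25 (0.134). With the *Rasa1*-KO label against the double-KO label these 3 had log2 fold changes of 0.20 (0.426), -0.15 (0.407) and -0.32 (0.0814), all above the threshold on the adjusted p. In *Nf2*-KO, *Nfkbiz*, an NF-κB cofactor, fell by 0.54 (0.0427). With the *Rasa1*-KO label against the double-KO label, *Nfkbiz* had a log2 fold change of -0.39 (0.154) and was not called. The nuclear receptor *Hnf4a*, a regulator of liver and gut epithelial genes, fell by 1.47 (3.60e-05) in *Nf2*-KO and by 0.50 (0.0422) with the *Rasa1*-KO label against the double-KO label. The cytokine *Il6* was higher, at 2.11 CPM in *Nf2*-KO against 0.423 in control (log2 fold change 2.31, edgeR adjusted p = 0.00111). Of the 25 lower genes, 16 were also lower with the *Rasa1*-KO label against the double-KO label, beside the 55.3% over all genes, and of the 5 higher genes 1 was also higher.

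Genes that handle iron and copper beside *Hp*, *Lcn2* and *Cp* were divided, with 6 of 16 lower and 6 higher in *Nf2*-KO and a median of -0.12. Over all genes 22.2% were lower and 20.6% higher. Heme oxygenase *Hmox1* rose by 2.21 (edgeR adjusted p = 2.29e-06), the transferrin receptor *Tfrc* by 1.06 (1.95e-05) and ferritin light chain *Ftl1* by 1.11 (6.54e-04), while the iron importer *Slc11a2* fell by 0.92 (5.67e-04). In labelled double-KO against control, *Hmox1* rose by 0.96 (0.00706) and *Tfrc* by 0.42 (0.0477), and *Slc11a2* fell by 0.59 (0.0418). There *Ftl1* had a log2 fold change of 0.37 (0.289).

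**Figure D5:**
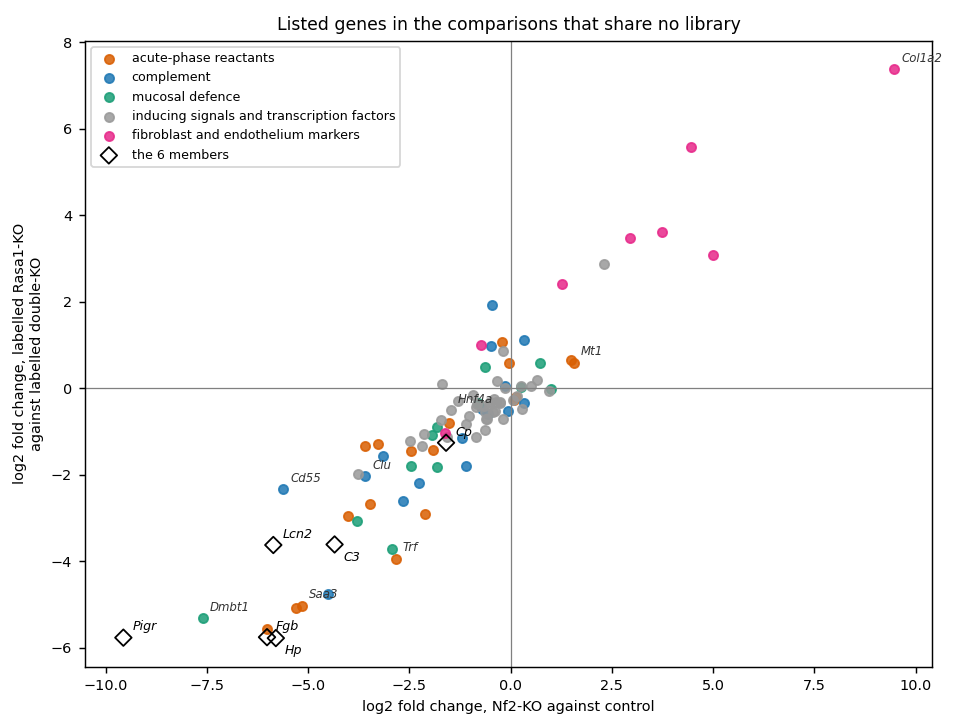
Log2 fold change of each listed gene in *Nf2*-KO against control (horizontal) and in labelled *Rasa1*-KO against labelled double-KO (vertical), which share no library. Colors are 5 of the lists and open diamonds the 6 members, of which *Pigr*, *Hp* and *Fgb* were chosen on the vertical axis. The members, *Dmbt1*, *Saa3* and *Trf* lie at the lower left, and *Col1a2* at the upper right.

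Markers of other cell types also differed between the groups. Of 8 fibroblast and endothelium markers, 6 were higher and 2 lower in *Nf2*-KO, where 20.6% and 22.2% of all genes were. Their summed level was between 75 and 922 CPM in control and 6991 and 7584 in *Nf2*-KO. It was between 2477 and 2614 with the *Rasa1*-KO label and 117 and 275 with the double-KO label. Most of this sum was *Col3a1*, at 490 CPM in control and 6575 in *Nf2*-KO. The collagen gene *Col1a2* was at 0.227 CPM in control and 137 in *Nf2*-KO (log2 fold change 9.47, edgeR adjusted p = 3.83e-07), and *Pdgfra* was at 3.77 and 81.3 (0.000772). The 2 lower markers were *Dcn*, by 0.72 (0.0362), and *Pecam1*, by 1.62 (0.00417). In control, the low end of the sum is the library of the unnumbered table, in which *Col3a1* was at 38.7 CPM against 812 and 619. Whether a mesenchymal state or other cells took part in the fall of the members was not tested.

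Of 17 gastric and intestinal epithelium markers, 6 were lower and 3 higher in *Nf2*-KO, where 22.2% and 20.6% of all genes were. *Epcam* fell by 2.63 and *Cdh1* by 2.09 (edgeR adjusted p = 1.01e-06 and 2.23e-06), and the actin-bundling *Vil1* fell by 1.52 (1.01e-06), while the intestinal factor *Cdx2* rose by 1.67 (4.27e-06). The keratins *Krt8*, *Krt18* and *Krt19*, at 2257, 1183 and 994 CPM in control, did not pass the test, with log2 fold changes of 0.19, 0.18 and 0.11. Without both libraries of unnumbered tables, 8 of the 17 were lower and 7 higher. Over all genes the calls also rose under this setting, from 4011 to 6166 lower and from 3710 to 6004 higher. The summed level of these markers was 4016 to 6820 CPM in control, 5234 to 5797 in *Nf2*-KO, 7912 to 8280 with the *Rasa1*-KO label and 6643 to 7624 with the double-KO label. In labelled *Rasa1*-KO against control, 4 of the 17 were lower and 7 higher, where 4011 and 3558 of the 18053 genes were. *Krt8*, *Krt18* and *Krt19* were among the higher (adjusted p = 0.0335, 0.0061 and 0.00397). With the *Rasa1*-KO label against the double-KO label, 3 were lower and 3 higher, where 16.3% and 14.0% of all genes were. *Vil1* had a log2 fold change of -0.12 there (0.421).

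Of 13 hepatocyte markers 5 were measured, since genes with a count of 0 in any library are absent from the tables. *Alb* was at 4.57 CPM in control, *Ttr* at 2.83 and *Apoa1* at 1.73. All 5, *Hnf4a* included, were lower in *Nf2*-KO, where 22.2% of all genes were. *Alb* and *Ttr* are also counted among the acute-phase reactants above, and *Hnf4a* among the signals and transcription factors. Their summed level was 111 to 156 CPM in control, 43.1 to 46.4 in *Nf2*-KO, 63.6 to 71.2 with the *Rasa1*-KO label and 83.6 to 128 with the double-KO label. Most of this sum was *Hnf4a*, at 116 CPM in control and 41.7 in *Nf2*-KO. Their part in the fall of the members was not tested. Of 14 leukocyte markers 4 were measured, and the pan-leukocyte *Ptprc* was at 0.412 CPM in control and 0.232 in *Nf2*-KO. *Cd14*, which epithelial cells also express, fell by 2.46 (edgeR adjusted p = 6.30e-07), *Cd68* and *Csf1r* rose by 1.02 and 0.90 (adjusted p = 0.00908 and 0.0373), and the summed level was 228 to 366 CPM in control and 65.7 to 69.8 in *Nf2*-KO. Most of this sum was *Cd14*, at 279 CPM in control and 50.8 in *Nf2*-KO, while *Cd68* was at 7.14 and 14.4. *Cd14* is also counted among the acute-phase reactants. *Ptprc* was near 0 in all groups.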

How the data were processed

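Total RNA depleted of ribosomal RNA was sequenced in 12 libraries prepared with a stranded kit. Per the submitters' processing notes, the authors used Trimmomatic 0.38 for trimming, HISAT2 2.1.0 for alignment to mm10 and StringTie 2.1.3b for quantification. They deposited raw read counts per gene, FPKM (divided by length and mapped reads), TPM and a log2 column, and the last 2 were not used here. The authors removed genes with a count of 0 in any sample, so that the lowest deposited count was 1, and a gene fully lost in 1 library would be absent.

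The test was run on the counts in edgeR 4.0.16 under R 4.3.3 (filterByExpr, TMM, 1 quasi-likelihood fit over the 12 libraries), with Benjamini-Hochberg adjustment over 18053 genes and calls at an adjusted p under 0.05. Adjusted p-values printed without a tool name are from this test. The fit with the sample labels as given had the 4 groups of 3 libraries. Fold changes of low genes depend on the prior count, and log2 CPM had a prior count of 2. FPKM were used for levels between genes and, as log2(FPKM + 1) with limma 3.58.1, as an alternative. DESeq2 1.42.0 was an alternative test. The procedure was tested on simulated counts before use. In a chi-square test of counts, all pairs of libraries within groups differed beyond sampling noise, and each was counted once. Libraries of control and labelled double-KO with the same number in the table name deviated together (r of 0.626, 0.313 and 0.444). Control 2 and labelled double-KO 2, whose table numbers differ, did so as well (r = 0.399). With 3 libraries per group, an outlier in both groups makes r positive between the remaining libraries. These r therefore cannot decide whether the numbers pair libraries, and the fit with this block is given beside that comparison as an alternative.

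The 6 members, the 9 gene lists and the tests were chosen with earlier results of these data known. The members are named in full. Of each list, up to 4 genes with the smallest adjusted p in *Nf2*-KO against control are named, and *Fga* and the regulators *Stat3*, *Socs3*, *Cebpb*, *Cebpd*, *Nfkbiz* and *Hnf4a* whatever their values. A further regulator is not reported here. *Fgg* is not analysed here. Further genes named, *Mt1*, *Mt2*, *Masp1*, *C1ra*, *Slpi*, *Fcgrt*, *Il6*, *Cebpa*, *Hps3*, the keratins and single markers of other cell types, were chosen after their values were seen. Promoter sequences and gene positions are from RefSeq (GRCm38.p6).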

Additional observations from a re-analysis of the deposited data

Results flagged for a closer look

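The effects of the edited genes did not add up on the log2 scale for some members. By the sample labels, the departure from additivity (labelled double-KO minus *Nf2*-KO minus labelled *Rasa1*-KO plus control) was 9.48 ± 0.22 for *Lcn2* (edgeR adjusted p = 2.04e-10), 7.95 ± 0.36 for *C3* (2.15e-08) and 2.85 ± 0.21 for *Cp* (8.31e-07), where 9454 of the 18053 genes were called. With the labels exchanged as the table names have them, it was 2.24 ± 0.19 for *Lcn2* (edgeR adjusted p = 1.93e-04), 0.74 ± 0.32 for *C3* (0.227) and 0.34 ± 0.21 for *Cp* (0.427), where 1157 genes were called. The departure of *Lcn2* was thus called under either reading of the labels, and its size depends on which is right. *Nf2* mRNA, at 11.9 CPM with the *Rasa1*-KO label and 58.9 with the double-KO label, went with the exchanged reading. The larger departures hold only if the sample labels are right. *Pigr*, *Hp* and *Fgb* were not tested, since their selection used these libraries.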

How the results depend on the processing

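Leaving aside the exchange of labels, 568 of 591 alternative values of the 27 tested results kept their direction and their side of the threshold, and 1 reversed, *Cp* in labelled *Rasa1*-KO against *Nf2*-KO with the replicate block by title number (-0.026, against 0.094, neither called). All 6 falls in *Nf2*-KO against control were kept in every alternative. For *C3* in labelled double-KO against control the call was lost without a filter on low counts (-0.86), with only the groups compared (-0.89) and with a replicate block by title number (-0.75), and leaving out single libraries gave -1.24 to -0.73. *Lcn2* in the same comparison was lost with only the groups compared (-1.36). The departure of *C3* from additivity with labels exchanged was gained with a replicate block by table number (0.79), without both libraries of unnumbered tables (0.94) and without the first labelled double-KO library, with leave-one-out values of 0.57 to 1.09. Under the study's rule of a 3-fold change at a raw p under 0.05, the unchanged values of *Cp* (-1.50 in labelled *Rasa1*-KO against control, -1.26 against labelled double-KO, 1.35 in labelled double-KO against *Nf2*-KO), *Lcn2* (-1.36 and 0.88) and *C3* (-0.89) fell short of the fold. With the labels exchanged, labelled *Rasa1*-KO against labelled double-KO became 5.76, 5.77, 5.75, 3.62, 3.61 and 1.26 for *Pigr*, *Hp*, *Fgb*, *Lcn2*, *C3* and *Cp*. Against control, *Hp* in the *Rasa1*-KO group became 0.24 and *Cp* -0.24, with -1.50 for *Cp* in the double-KO group, and against *Nf2*-KO the *Rasa1*-KO values became 3.46 for *C3* and 1.35 for *Cp*, and the double-KO values -0.077 for *Fgb*, -0.15 for *C3* and 0.094 for *Cp*. Apart from the exchange and the rules themselves, the cause of these changes was not tested.

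Same-numbered libraries deviated together, at r over 0.1, in 4 of 14 pairs by title number and in 5 of 14 by table number, so the numbers were not taken to pair the libraries. In the fit with the replicate block by table number, *Lcn2* in labelled double-KO against control was -1.35 and *C3* -0.93, and 1051 genes were called lower there in place of 444. That count was 898 with DESeq2, 156 with the block by title number and 2346 without the unnumbered control library. Genes called lower in *Nf2*-KO against control were 4011, and 6166 without both libraries of unnumbered tables and 1377 under the rule of the study. In labelled *Rasa1*-KO against labelled double-KO 2936 were called lower, and 4662 and 657 under the same 2 settings. In labelled *Rasa1*-KO against *Nf2*-KO 315 were called lower and 346 higher, with 791 and 772 under the block by table number and 90 and 137 under that by title number, 787 and 678 with DESeq2, 1903 and 1591 without both libraries of unnumbered tables, 1224 and 996 without the unnumbered control library, 88 and 144 under the rule of the study, and 83 to 118 lower and 120 to 170 higher without any 1 library of the groups compared. Without control library 2, 541 were lower.

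The counts of the lists without both libraries of unnumbered tables, and with RLE size factors, were added after the data were seen. Lower counts moved by at most 1.5 times in *Nf2*-KO, except for the leukocyte markers (1 to 2). Depth limits *Pigr* most, with 2 to 24 reads per library in *Nf2*-KO and labelled *Rasa1*-KO.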
